A study of Arabidopsis thaliana with 6 samples.

Results

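A set of 98 probe sets, of 22746 on the Arabidopsis array that are no controls, gave low signals in pkl-1 seedlings and at least 2-fold higher signals in wild type. They were chosen by their values: a pkl-1 mean below 3.5 log2 units, a pkl-1 mean minus wild-type mean of -1 or less, and the highest pkl-1 array below the lowest wild-type array. Of the 98, 54 are paired with 1 gene and cover 53 genes, 1 is paired with several genes and 43 are unnamed here. Because those values chose the members, their levels and differences are given as a description without a test, and the members are described by gene where 1 gene is paired.

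The series compares whole seedlings of the pkl-1 mutant with whole seedlings of the Col-0 wild type, both aged 14 days and grown on half-strength MS agar plates in continuous light, with 3 arrays each that the labels call biological replicates. No treatment beyond the bleach and detergent used to sterilise the seed is given, and both genotypes share it. PKL is named by the mutant, but no probe set used here is paired with it alone, so its level is not analysed here and gives no test of the genotype labels. The values are GCRMA log2 signals, in which 1 unit is a 2-fold difference.

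PICKLE is a chromatin remodelling protein of the CHD3 family, which uses ATP to move or space nucleosomes. In Arabidopsis it is best known for keeping seed genes off after germination and for its link to the histone mark that Polycomb proteins lay down on silent genes. In whole seedlings, fewer cells that make a transcript and less transcript per cell cannot be told apart.

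Array medians lay between 5.03 and 5.13 log2 units over all probe sets. Of the markers fixed for shoots, 3 of 10 were measured by a probe set of 1 gene. Their summed linear signal was 13722 to 14871 in pkl-1, against 15782 to 16892 in wild type. RCA, the brightest, was not called, at 13.20 log2 units in pkl-1, against 13.24 in wild type (limma adjusted p = 0.845). FMA, also called FAMA, was not called either, at 3.37 in pkl-1, against 3.74 in wild type (limma adjusted p = 0.597). The antenna gene LHCB4.2 was called lower (limma difference -0.50 ± 0.09 log2 units, SE, adjusted p = 0.0355). That call was lost when pkl-1 replicate 2 or a wild-type array was left out, at 0.0753 to 0.122, and under eBayes without trend, at 0.111. For roots, 3 of 10 markers were measured, with summed signals of 3772 to 4386 in pkl-1, against 3538 to 4277 in wild type. The beta-glucosidase gene PYK10, by far the brightest of them, averaged 11.96 ± 0.11 log2 units in pkl-1, against 11.95 ± 0.16 in wild type (SD, n = 3 each). EXPA18 averaged 4.58 in pkl-1, against 4.75 in wild type, and EXPA7 averaged 3.56 in pkl-1, against 3.89 in wild type. Limma called 0 of the 3, and 0 had an unadjusted p under 0.05. The pollen gene AT5G45880, known as LAT52, was the only measured flower or pollen marker of 8, at 1.5 ± 0.21 in pkl-1, against 1.66 ± 0.25 in wild type (SD, n = 3 each), and none of the 9 seed and embryo markers was measured. The part of these marker differences in the levels below was not tested.

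Over the 98 members, pkl-1 means ran from 1.35 to 3.49 log2 units with a median of 2.65, against wild-type means of 2.49 to 6.74 with a median of 4.07. The median difference was -1.35 log2 units, and over all probe sets it was 0.01. In 18 members the difference was -2 or less. The wild-type level was moderate at most: the highest member stood at the 64.3rd percentile of all wild-type means and the median member at the 43.1st.

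The description of these genes as active in wild type and lost in the mutant holds in part only. In 75 of the 98 the wild-type mean was 3.5 or more, and in 55 every wild-type array was; in the other 23 the wild-type mean itself was below the level that the rule takes as low in pkl-1. A mean below 3.5 is common on this array, being found for 39.5% of all probe sets in pkl-1 and for 39.2% in wild type. GCRMA estimates and subtracts a background, so folds that end at such levels depend on that estimate, and a low signal does not show that a transcript is absent.

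**Figure D1:**
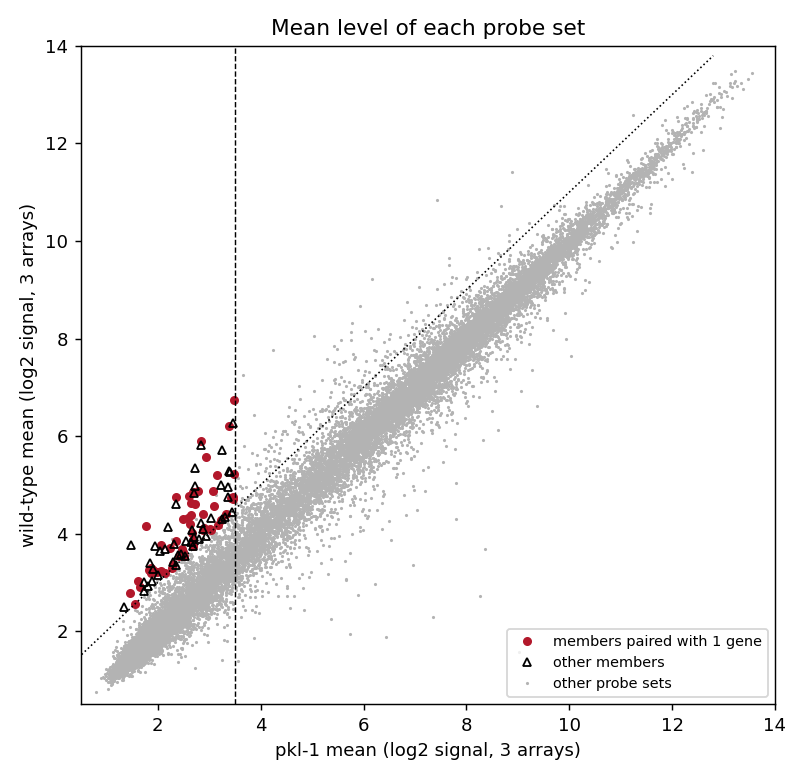
Mean log2 signal in pkl-1 (x axis) and wild type (y axis) for every probe set that is no control, with 54 members paired with 1 gene as red circles, the other 44 members as open triangles and the rest in grey. The dashed line is the pkl-1 mean of 3.5 and the dotted line a difference of -1; members fill the corner left of the first and above the second, with wild-type means up to 6.74.

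At the edges of the rule the values run on without a step. The members nearest the difference threshold were AT2G39430 at -1.01, AT3G32030 at -1.01 and AT1G01390 at -1.02 log2 units, while AT3G46270, AT3G47380 and AT2G04800 fell outside it at -0.99, -0.98 and -0.97. By pkl-1 level, AT2G25625, AT3G46490 and AT5G14650 were just inside at 3.49, 3.48 and 3.47, and AT1G68710, AT4G08780 and AT3G14760 just outside at 3.51, 3.51 and 3.59. By separation of the arrays, AT1G66760 and AT4G01460 were inside with gaps of 0.03 and 0.04 log2 units between the genotypes, whereas AT4G20230 and AT1G45180 overlapped by 0.07 and 0.09. Across the series 13 probe sets met both level criteria but overlapped, and 288, or 1.27% of all, had a difference of -1 or less with the arrays apart at any level in pkl-1.

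The gap between the lowest wild-type array and the highest pkl-1 array had a median of 0.71 log2 units over the members. It was at least 1 in 25 of them and under 0.2 in 11. All 98 are apart by the rule, and the same separation, every pkl-1 array below every wild-type array, was found in 10.4% of all probe sets. In a limma fit over all probe sets, 51 of the 98 members had an adjusted p under 0.05 and were lower, against 1.31% of all probe sets called lower; the rule used the same contrast, so nothing is read from that count. Leaving out pkl-1 replicate 1, 2 or 3 gave 21, 11 or 20 such members; leaving out wild-type replicate 1, 2 or 3 gave 37, 16 or 46. Calls over all probe sets were fewer in these settings too, at 219, 123 and 229 and at 303, 132 and 275, against 540 with all arrays.

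Among genes that encode regulators of transcription, 6 were members, with differences of -2.40 to -1.18 log2 units. AGL24, a MADS-box protein that promotes flowering, stood at 2.15, 2.13 and 2.79 log2 units in the pkl-1 arrays, against 5.15, 4.48 and 4.62 in the wild-type arrays, a 5.26-fold lower mean. SNZ, an AP2-type protein that represses flowering, stood at 3.26, 1.98 and 2.65 in pkl-1, against 4.96, 4.21 and 3.45 in wild type. The genotypes of AGL24 were 1.69 log2 units apart at their nearest arrays and those of SNZ 0.19, so that a promoter and a repressor of the same transition were both low in the mutant, with different margins.

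TRY encodes a small MYB protein that moves between epidermal cells and keeps the neighbours of a trichome from becoming trichomes. It had 2.27, 2.36 and 2.06 log2 units in pkl-1, against 4.80, 3.67 and 2.66 in wild type. UPB1, a bHLH protein that controls peroxidase genes where root cells stop dividing, had 2.80, 2.81 and 2.47 in pkl-1, against 4.02, 3.73 and 3.86 in wild type. The wild-type arrays of TRY spread over more than the gap to pkl-1, whereas those of UPB1 lay close together (2.69 ± 0.19 in pkl-1, against 3.87 ± 0.15 in wild type, SD, n = 3 each).

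Of the regulators known by family only, AT4G01460 of the bHLH family had 3.44, 2.35 and 2.15 log2 units in pkl-1, against 5.50, 4.90 and 3.48 in wild type. AT2G38300, a MYB-like DNA-binding protein, had 2.13, 1.65 and 2.16 in pkl-1, against 3.46, 2.81 and 3.37 in wild type. Replicate 1 was the highest array of AT4G01460 in both genotypes and its lowest wild-type array nearly met its highest pkl-1 array, while AT2G38300 was low throughout, with only 3.21 log2 units on average in wild type.

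Of the 21 genes on the flowering-time list 6 were measured, AGL24 among them, and none of the other 5 was called by limma at an adjusted p under 0.05 (1 had an unadjusted p under 0.05), with a median difference of 0.04 log2 units. Over all probe sets 2.37% were called in either direction.

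**Figure D2:**
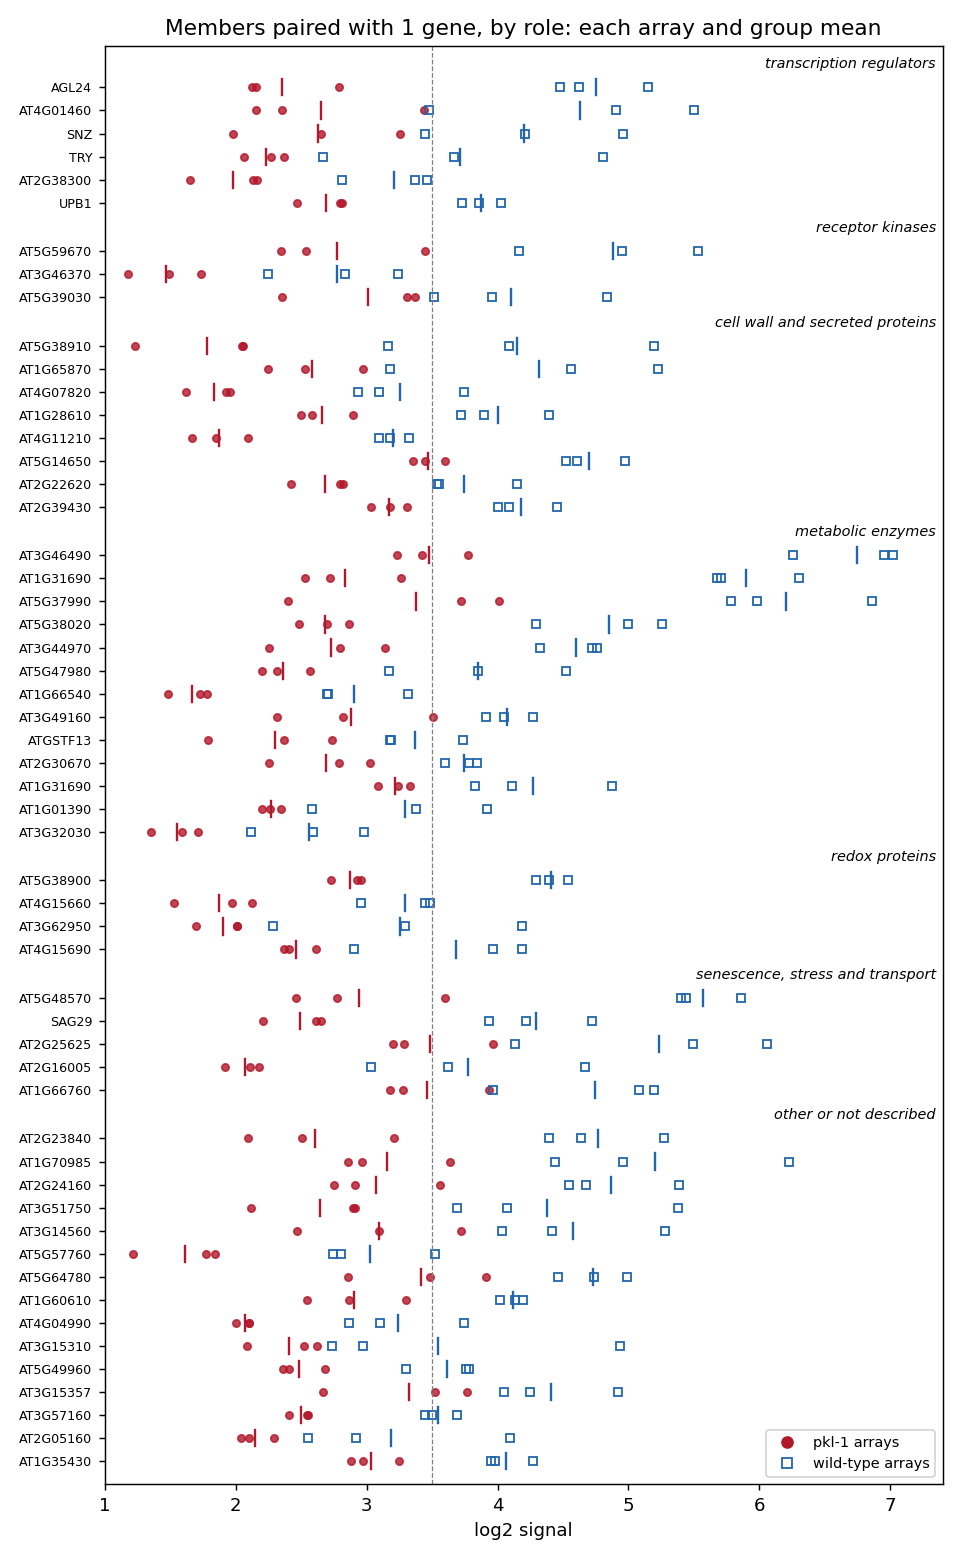
Log2 signal of the 54 members paired with 1 gene in each pkl-1 array (red circles) and each wild-type array (blue open squares), with a short bar at each genotype's mean and the genes grouped by role. AT1G31690 appears with both of its probe sets; the dashed line is the pkl-1 mean of 3.5, and the genotypes are well apart for AT3G46490 and nearly touch for AT1G66760.

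Receptor kinases, which sense signals outside the cell, gave 3 members. AT5G59670, of the leucine-rich repeat family, had 2.34, 3.44 and 2.53 log2 units in pkl-1, against 5.54, 4.16 and 4.95 in wild type. AT3G46370, of the same family, had 1.74, 1.18 and 1.49 in pkl-1, against 2.84, 3.24 and 2.24 in wild type, so that its wild-type level was itself low. AT5G39030, of the CrRLK1L family named after a periwinkle kinase, had 2.36, 3.37 and 3.31 in pkl-1, against 3.51, 4.84 and 3.96 in wild type. Its nearest arrays were 0.14 log2 units apart, against 0.72 for AT5G59670.

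Genes for enzymes of metabolism made up 13 member probe sets of 12 genes, with a median difference of -1.24 log2 units, and they hold the 3 most negative differences among the named members. AT3G46490, of the family of oxygenases that use 2-oxoglutarate, had 3.23, 3.42 and 3.78 log2 units in pkl-1, against 6.96, 6.25 and 7.02 in wild type, which is 9.62-fold lower. Its wild-type mean of 6.74 was the highest of any member, and its pkl-1 mean lay just inside the threshold, so that it left the set without pkl-1 replicate 1 or 2 although the difference stayed large in each array.

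AT1G31690, a copper amine oxidase that breaks down amines with release of hydrogen peroxide, was measured by both a bright and a dimmer member probe set. The brighter probe set had 3.26, 2.53 and 2.72 log2 units in pkl-1, against 6.30, 5.71 and 5.68 in wild type. The dimmer one had 3.33, 3.24 and 3.09 in pkl-1, against 4.87, 3.83 and 4.11 in wild type. Both were lower in every pkl-1 array, but by differing amounts, 8.33-fold and 2.07-fold, so that the fold differed between probes of the same gene.

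The other measured copper amine oxidases did not share this. Of 9 fixed genes 6 were measured, and none of the other 5 had a negative difference. CuAO1 had 7.14, 7.44 and 7.43 log2 units in pkl-1, against 6.22, 6.42 and 6.44 in wild type, and rose by 0.98 ± 0.15 (SE, limma adjusted p = 0.0196); the call was lost without pkl-1 replicate 2 or 3 or wild-type replicate 2, with adjusted p of 0.105, 0.0725 and 0.0702. Over all probe sets 1.06% were called higher. AT1G31710, which follows AT1G31690 in gene order, had 8.04, 7.88 and 8.08 in pkl-1, against 7.47, 7.67 and 7.56 in wild type (limma adjusted p = 0.118). A member and its neighbour of the same family thus had differences of opposite sign, the neighbour's not called.

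SABATH enzymes transfer methyl groups to small acids such as salicylate and jasmonate, and 2 of the 16 measured of 24 fixed genes were members. AT5G37990 had 3.72, 4.01 and 2.40 log2 units in pkl-1, against 6.86, 5.78 and 5.98 in wild type, a 7.12-fold lower mean. AT5G38020 had 2.48, 2.87 and 2.69 in pkl-1, against 5.26, 4.30 and 4.99 in wild type, which is 4.49-fold lower. Replicate 1 was the highest wild-type array for both, and their arrays were 1.77 and 1.43 log2 units apart at the nearest. None of the other 14 was called by limma (1 had an unadjusted p under 0.05), with a median difference of -0.11; apart from AT3G21950 (5.02 in pkl-1, 5.41 in wild type) they had wild-type means of about 3 log2 units at most.

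Cytochromes P450, which oxidise hormones, lipids and defence compounds, gave 2 members. AT3G44970 had 3.14, 2.25 and 2.79 log2 units in pkl-1, against 4.76, 4.72 and 4.32 in wild type. AT1G66540 had 1.48, 1.78 and 1.72 in pkl-1, against 3.31, 2.70 and 2.70 in wild type. The genotypes were 1.19 and 0.92 log2 units apart at the nearest arrays, the first from a clearly higher wild-type level.

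AT5G47980, a BAHD acyltransferase that lies in the gene cluster for the root triterpene thalianol, had 2.20, 2.31 and 2.56 log2 units in pkl-1, against 3.17, 3.85 and 4.52 in wild type. AT1G01390, a glycosyltransferase that attaches sugars to small molecules, had 2.26, 2.35 and 2.20 in pkl-1, against 3.92, 3.37 and 2.58 in wild type. In both, the pkl-1 arrays were close together and the wild-type arrays spread widely, with replicate 3 the highest for AT5G47980 and the lowest for AT1G01390.

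AT3G32030, of the terpene synthase family, had 1.71, 1.59 and 1.35 log2 units in pkl-1, against 2.98, 2.12 and 2.59 in wild type; its probe set is of the kind that can match several transcripts, and its wild-type level was low. ATGSTF13, a phi-class glutathione transferase, had 2.37, 2.74 and 1.79 in pkl-1, against 3.73, 3.19 and 3.18 in wild type. AT2G30670, a dehydrogenase related to tropinone reductases, had 2.79, 3.03 and 2.25 in pkl-1, against 3.78, 3.84 and 3.60 in wild type. These were 2.02-fold, 2.10-fold and 2.07-fold lower in pkl-1. AT3G49160, of the pyruvate kinase family that ends glycolysis, had 2.82, 3.51 and 2.32 in pkl-1, against 4.05, 3.91 and 4.27 in wild type, with the wild-type arrays closer to each other than the pkl-1 arrays were.

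**Figure D3:**
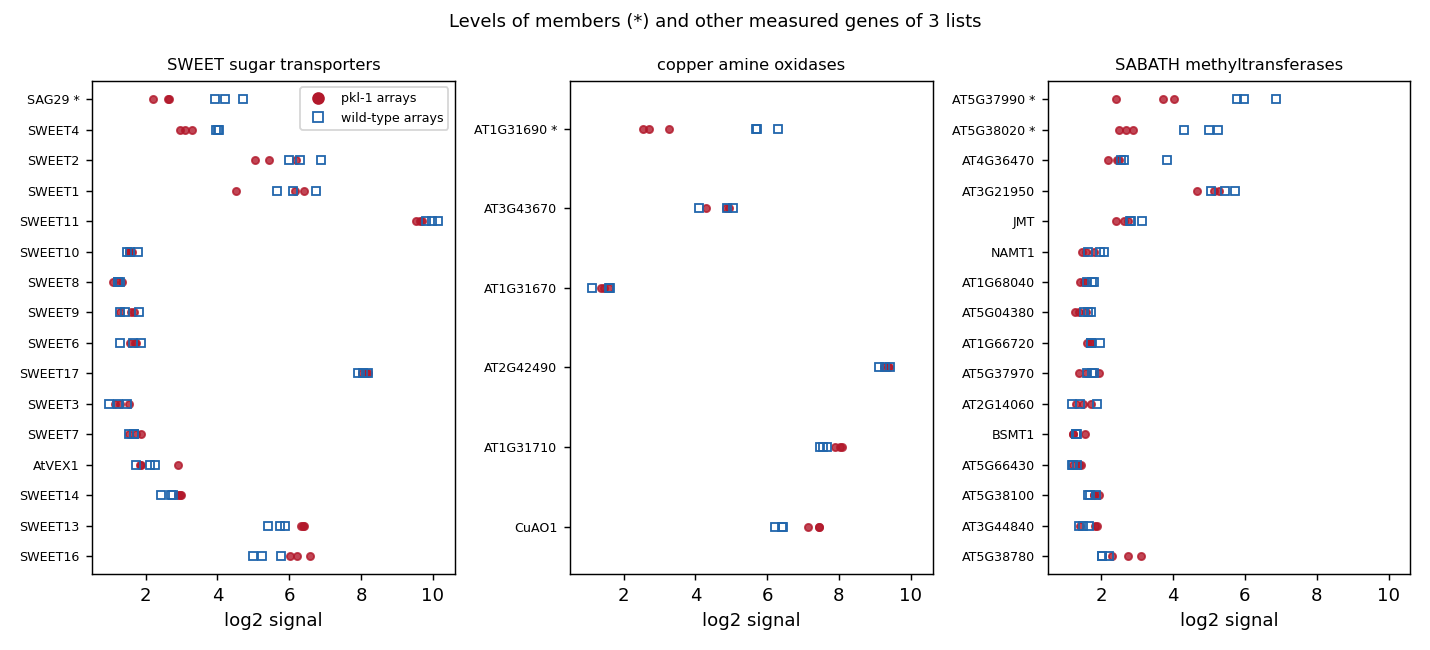
Log2 signal in each pkl-1 array (red circles) and wild-type array (blue open squares) for the measured SWEET, copper amine oxidase and SABATH genes, ordered by difference, with an asterisk at members. The members SAG29, AT1G31690, AT5G37990 and AT5G38020 stand at the top of each panel, while the other genes have smaller differences, and the genotypes overlap for some of them and not for others.

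Cell wall and secreted proteins gave 8 members, with a median difference of -1.34 log2 units. Dirigent proteins steer the coupling of monolignols into lignans and lignin, and 3 of their genes were members. AT1G65870 had 2.97, 2.53 and 2.25 log2 units in pkl-1, against 5.23, 4.56 and 3.18 in wild type. AT4G11210 had 1.66, 1.85 and 2.09 in pkl-1, against 3.32, 3.10 and 3.18 in wild type. AT2G39430 had 3.18, 3.31 and 3.03 in pkl-1, against 4.09, 4.45 and 4.0 in wild type. The wild-type arrays of AT1G65870 covered more than 2 log2 units, while those of the other 2 dirigent genes lay much closer together.

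Enzymes that cut pectin gave 2 members. AT5G14650, of the polygalacturonase family, had 3.60, 3.35 and 3.44 log2 units in pkl-1, against 4.53, 4.60 and 4.97 in wild type. AT2G22620, of the rhamnogalacturonan lyase family, had 2.80, 2.42 and 2.82 in pkl-1, against 4.15, 3.54 and 3.56 in wild type. The genotypes were 0.93 and 0.71 log2 units apart at the nearest arrays.

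The germin-like protein AT5G38910, of a family of secreted cupin proteins, had 2.06, 2.05 and 1.23 log2 units in pkl-1, against 5.19, 4.09 and 3.17 in wild type. AT4G07820, of the CAP family to which PR-1 belongs, had 1.92, 1.96 and 1.62 in pkl-1, against 2.93, 3.74 and 3.09 in wild type. AT1G28610, of the GDSL esterase and lipase family, had 2.90, 2.50 and 2.58 in pkl-1, against 4.39, 3.72 and 3.90 in wild type. Of these, AT5G38910 had the most negative difference, -2.37, and the largest wild-type SD, 1.01 log2 units.

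Redox proteins gave 4 members. The glutaredoxins among them, small proteins that exchange disulfides with glutathione, had wild-type means of 3.25 to 3.69 log2 units. AT4G15660 had 2.12, 1.53 and 1.97 log2 units in pkl-1, against 2.95, 3.45 and 3.48 in wild type. AT4G15690 had 2.37, 2.61 and 2.41 in pkl-1, against 2.90, 3.97 and 4.19 in wild type. AT3G62950 had 1.70, 2.01 and 2.01 in pkl-1, against 2.28, 4.19 and 3.29 in wild type. In all 3, replicate 1 was the lowest wild-type array, whereas it was the highest in 54 of the 98 members. AT5G38900, of a thioredoxin-fold family, had 2.93, 2.96 and 2.73 in pkl-1, against 4.30, 4.54 and 4.39 in wild type, with small spread in both genotypes (SD 0.13 in pkl-1, against 0.12 in wild type, n = 3 each).

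Genes linked to senescence, stress or transport gave 5 members. SAG29, also called SWEET15, moves sucrose across membranes and is induced in senescing leaves; it had 2.61, 2.21 and 2.65 log2 units in pkl-1, against 4.22, 4.72 and 3.93 in wild type. AT2G25625 encodes CHLOROPLAST VESICULATION, which takes apart chloroplasts during senescence and stress, and had 3.97, 3.20 and 3.29 in pkl-1, against 6.06, 5.50 and 4.13 in wild type. Both were more than 3-fold lower on average, but the arrays of AT2G25625 were only 0.16 log2 units apart at the nearest, against 1.28 for SAG29.

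Among the 16 measured SWEET genes of 17 fixed, SWEET4 was the only other one that limma called, with 3.29, 2.96 and 3.11 log2 units in pkl-1, against 4.05, 3.95 and 4.0 in wild type (limma difference -0.88 ± 0.17, SE, adjusted p = 0.0426). That call was lost without any 1 array, with adjusted p of 0.0847 to 0.162, and under quantile normalization at 0.0526. The other 14 were not called. Of them, 5 had a difference below 0, such as SWEET2 at -0.83, while SWEET16 at 0.94 and SWEET13 at 0.705 went the other way. The 15 that are no members had a median difference of 0.06, and 5 of the 15 had an unadjusted p under 0.05.

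AT5G48570, known as ROF2, is an immunophilin that is made on heat. It had 2.46, 2.77 and 3.60 log2 units in pkl-1, against 5.40, 5.44 and 5.86 in wild type, which is 6.18-fold lower. Replicate 3 was the highest array in both genotypes. Only 3 other genes of the 20 on the heat-shock list were measured, and limma called 0 of them (1 had an unadjusted p under 0.05): AT5G37670, known as HSP15.7, differed by -0.45 log2 units, HSA32 by -0.06 and ATHSP22.0 by -0.01.

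AT1G66760, of the MATE family of efflux transporters, had 3.17, 3.28 and 3.94 log2 units in pkl-1, against 3.96, 5.08 and 5.2 in wild type. AT2G16005, a protein with an MD-2-related lipid recognition domain, had 2.18, 2.11 and 1.92 in pkl-1, against 3.62, 3.03 and 4.67 in wild type. The first is a member by the narrowest margin of all, 0.03 log2 units, and the second was low in all pkl-1 arrays.

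The other 15 named members have no role given here, with differences of -2.17 to -1.03 log2 units. AT2G23840 had 3.21, 2.50 and 2.09 log2 units in pkl-1, against 5.27, 4.64 and 4.39 in wild type. AT1G70985 had 2.97, 2.85 and 3.64 in pkl-1, against 4.96, 4.44 and 6.23 in wild type. These were 4.49-fold and 4.15-fold lower. AT2G24160, a transcribed pseudogene in the gene table, had 2.75, 3.56 and 2.91 in pkl-1, against 4.68, 5.39 and 4.55 in wild type, and replicate 2 was highest in both genotypes.

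The remaining 12 were AT3G51750, AT3G14560, AT5G57760, AT5G64780, AT1G60610, AT4G04990, the pseudogene AT3G15310, AT5G49960, AT3G15357, AT3G57160, AT2G05160 and AT1G35430. AT3G51750 had 2.89, 2.91 and 2.12 log2 units in pkl-1, against 5.38, 4.07 and 3.69 in wild type. AT3G15310 had 2.62, 2.52 and 2.09 in pkl-1, against 4.94, 2.97 and 2.73 in wild type, so that its difference of -1.14 rested largely on wild-type replicate 1. A second probe set of AT3G57160, which is no member, gave 2.49, 2.47 and 2.37 in pkl-1, against 2.85, 2.38 and 2.63 in wild type, with overlapping arrays and a limma adjusted p of 0.673, while the member probe set gave 2.55, 2.54 and 2.40 in pkl-1, against 3.5, 3.69 and 3.45 in wild type.

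The 44 members without a single gene name passed the same rule as the named ones. The rule bounds the levels and differences of both groups, so nothing is read from a likeness between them. For the 44, the pkl-1 means had a median of 2.65 log2 units and the wild-type means one of 3.91. The differences of the 44 ran from -2.97 to -1.0 with a median of -1.34. For the 54 with 1 gene these medians were 2.64, 4.11 and -1.35. Probe sets with 1 gene made up 55.1% of the members and 59.4% of all probe sets.

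The order of the arrays within a genotype was not used by the rule. Wild-type replicate 3 was the lowest wild-type array in 52 of the 98 members, which is 53.1%, where it was lowest in 39.2% of all probe sets. Wild-type replicate 1 was the highest in 54, or 55.1%, against 38.8% of all probe sets. In pkl-1 the same numbers stood out less, with replicate 3 lowest in 48 members (49.0%, against 38.8% of all probe sets) and replicate 1 highest in 41 (41.8%, against 34.3%). By array, the median level of the members was 2.63, 2.54 and 2.49 log2 units in pkl-1 replicates 1 to 3, and 4.19, 4.05 and 3.82 in wild-type replicates 1 to 3. The probe sets are not independent of each other, and no test was made of these shares. Members also varied more between arrays than all probe sets did, and the shares were not compared at equal spread.

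**Figure D4:**
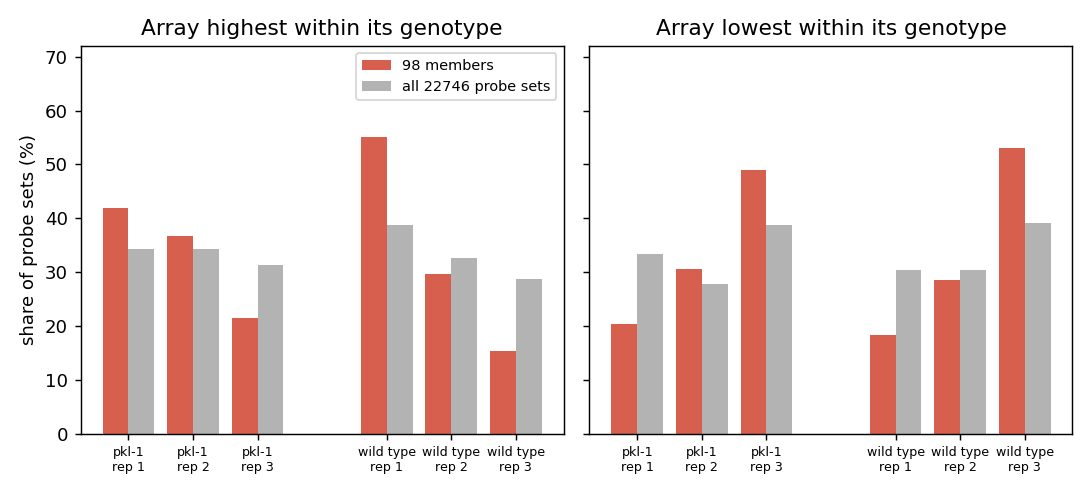
Share of probe sets (%) for which each array is the highest (left) or the lowest (right) of the 3 arrays of its genotype, for the 98 members (red) and all 22746 probe sets (grey). Wild-type replicate 1 was highest in 55.1% of members and replicate 3 lowest in 53.1%, against 38.8% and 39.2% of all probe sets.

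The spread between arrays was larger among members than across the array. The median SD over members was 0.27 log2 units in pkl-1, against 0.43 in wild type; over all probe sets these medians were 0.16 and 0.17 (n = 3 each). In 72 members, or 73.5%, the wild-type SD was the larger, against 53.0% of all probe sets. The rule chose members by these same array values, which bears on the SD of each genotype, so nothing is read from these shares.

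Members lay on all 5 nuclear chromosomes, with 9 genes on chromosome 1, 11 on 2, 12 on 3, 7 on 4 and 14 on 5. The measured genes paired with 1 locus were split as 25.7%, 16.3%, 20.5%, 14.6% and 22.4% over these chromosomes, and the members as 17.0%, 20.8%, 22.6%, 13.2% and 26.4%. Some stood close in gene order: AT5G38900 and AT5G38910 were direct neighbours, and 2 genes lay between AT4G15660 and AT4G15690 and between AT5G37990 and AT5G38020. The glutaredoxins and the methyltransferases of these pairs are related in sequence by family, and their probes were not checked for shared sequence. Measured genes next to these glutaredoxins, AT4G15650, AT4G15680 and AT4G15700, were not called. They had differences of -0.10, -0.15 and -0.82 log2 units (limma adjusted p = 0.853, 0.825 and 0.136).

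Most measured genes next to a member were not called. Of 106 neighbouring positions, 43 held a measured gene, and 41 of these genes were no members, with a median difference of -0.03 log2 units; 2 were called lower and 0 higher, 4.88% lower against 1.31% of all probe sets. AT5G38030, of the MATE efflux family and next to AT5G38020, fell, with 5.69, 6.10 and 5.68 log2 units in pkl-1, against 7.44, 6.77 and 6.93 in wild type (limma difference -1.22 ± 0.22, SE, adjusted p = 0.0325). AT2G22610, a gene with a kinesin motor domain next to AT2G22620, fell as well, with 4.12, 3.79 and 4.06 in pkl-1, against 4.93, 5.07 and 4.96 in wild type (limma difference -0.99 ± 0.18, SE, adjusted p = 0.0352). Both calls were lost without any 1 array, with adjusted p of 0.0612 to 0.102 for AT5G38030 and 0.0807 to 0.136 for AT2G22610.

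**Figure D5:**
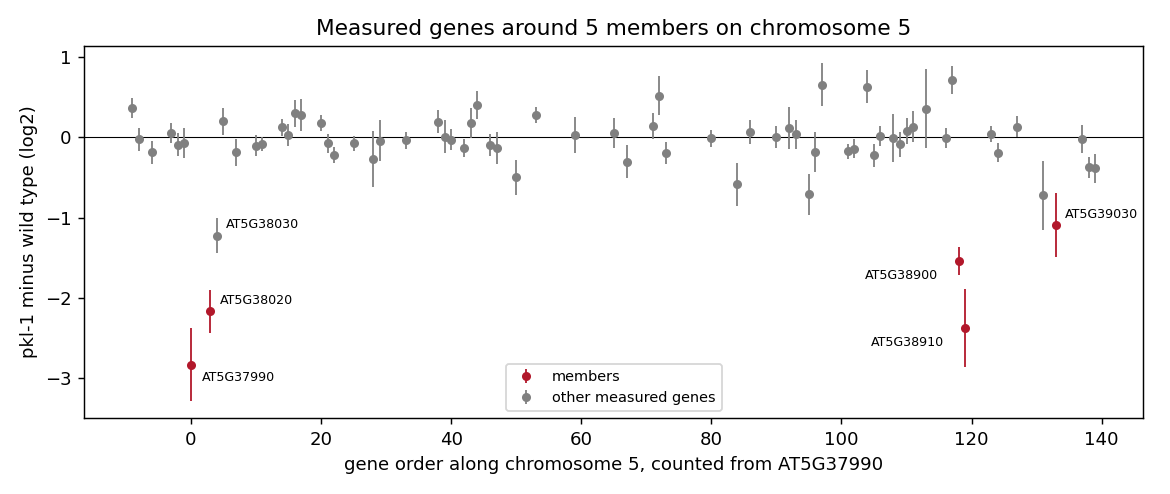
Difference of pkl-1 minus wild type (log2, points, with limma SE as bars) for the 71 measured genes around 5 members on chromosome 5, placed by gene order counted from AT5G37990. Members (red) and AT5G38030 lie between -1.09 and -2.83, and the other genes (grey) scatter around 0.

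Along chromosome 5, from shortly before AT5G37990 to shortly after AT5G39030, 71 of 154 genes were measured and 5 were members. The other 66 had a median difference of -0.01 log2 units, and AT5G38030 was the only one of them that limma called.

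The list of PKL and other CHD3 and Polycomb genes had 1 measured gene of 14, AT3G23060, known as BMI1C, which rose. It had 5.38, 5.83 and 6.0 log2 units in pkl-1, against 1.95, 1.76 and 2.13 in wild type (limma adjusted p = 4.78e-04), the mirror of the pattern described here. By the mirrored rule, a wild-type mean below 3.5 with pkl-1 at least 1 log2 unit higher and the arrays apart, 54 probe sets were found, against the 98 that were low in pkl-1.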

How the data were processed

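Levels were measured with Affymetrix arrays in 3 pkl-1 and 3 wild-type samples. The authors deposited 1 log2 value for each probe set and array, and per the submitters' processing notes the software was GCRMA; its version and annotation were not given in the sources used here. The log2 scale was read from the values. Arrays have no read depth, and 3 per genotype limit the precision. The 64 control probe sets were left out, and the other 22746 were used without further normalization. A platform annotation table gave gene pairings, with symbols, order of genes and biotypes from the TAIR10.1 gene table; since the platform's build is unnamed, no coordinates are given.

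The members and lists were chosen with earlier results of these data known, and the role groups after the values were seen. All members with 1 gene could be named, with array values for the 15 of most negative difference and for those with a role. Of other genes the rule named list and symbol-family genes that limma calls, measured neighbours of members, further probe sets of member genes and the nearest outside each threshold; any other gene named or given by array was chosen after its values were seen. For a list gene, the probe set of highest mean stands for it. The count for 1 symbol family is not reported here.

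Differences of pkl-1 minus wild type were tested in R 4.3.3 with limma 3.58.1 (lmFit, then eBayes with trend, 2-sided, Benjamini-Hochberg over all 22746, threshold 0.05). The fit was also run on simulated data with independent noise for each array, which cannot show how it performs where array departures are correlated. Alternatives were other moderation, a filter on the dimmest 30%, quantile normalization, median centring, a block for the replicate number, leaving out each array, and other thresholds of the rule. Figures used matplotlib 3.10.9 in Python 3.11.15.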

Additional observations from a re-analysis of the deposited data

How the results depend on the processing

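With 1 array left out, 96 to 130 probe sets met the rule, against 98, and 77 to 93 of the 98 members were among them; 56 stayed in all 6 settings, a count of shared members added after seeing the data. Quantile normalization gave 92 probe sets and median centring 99, of which 91 and 98 were members of the main set. The size of the set followed its thresholds by construction: a difference of -1.5 or less left 37 and one of -0.8 or less gave 158, while a pkl-1 mean below 3 or 4 gave 73 or 116. Members called lower by limma numbered 51, and 46 to 61 under other moderation, rescaling or without the dimmest 30% of probe sets, where 89 members were tested; with 1 array left out they numbered 11 to 46. Calls over all probe sets moved as well: 540 with the settings reported, 470 to 652 in the first of these alternatives and 123 to 303 with 1 array left out. Of the 43 measured list genes that are neither members nor cell-type markers, 3 were called, and 1 to 2 with 1 array left out.

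With the replicate number as a block, 89 members were called lower, 1518 probe sets were called in all, against 540 without it, and 6 list genes were called, SWEET13, SWEET2 and SWEET16 being added (limma adjusted p = 0.0380, 0.0178 and 0.0363); the cause was not tested. Nothing in the labels ties arrays of the same number together. Each array's departure from its genotype mean was correlated over probe sets with that of its namesake in the other genotype. The r was 0.49 for number 1, -0.02 for number 2 and 0.58 for number 3. Between unlike numbers, r ran from -0.56, for pkl-1 replicate 1 and wild-type replicate 3, to 0.10, for pkl-1 replicate 2 and wild-type replicate 1. The departures within a genotype are not independent of each other, and whether the numbers pair the arrays was not tested.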
